A study of Homo sapiens with 24 samples.

Results

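The 10 genes described here make, recycle or break down glutathione or belong to the antioxidant program of the transcription factor NRF2, and they were taken by symbol from a count table of 23354 genes. They are NFE2L2, GCLC, GCLM, GSS, GSR, CHAC1, TXNRD1, SRXN1, NQO1 and HMOX1. Each symbol has 1 row in the table, and all 10 had enough reads to be tested in both cell lines. The cells were MV4-11 and KG-1a, established human acute myeloid leukemia (AML) lines, sequenced to find what the adenosine analogs 8CA (8-chloro-adenosine) and 8AA (8-amino-adenosine) change in AML cells. The analogs differ in the group on the adenine base, a chlorine atom in 8CA and an amino group in 8AA, and both were given at 1 μM. Each line was left untreated or treated with 8CA or 8AA for 8 h or 24 h, which gives 12 groups of 2 libraries, named A and B, and 24 libraries in all. All groups carry the genotype label WT, are cultures of an established line in Iscove's medium with serum, and gave total RNA. Nothing in the labels says that A and B were separate cultures, so the p-values measure the spread between these libraries, which may be technical.

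Glutathione is a tripeptide of glutamate, cysteine and glycine and the most abundant thiol of the cell. Glutamate-cysteine ligase, made of a catalytic subunit (GCLC) and a modifier subunit (GCLM), joins the first pair of amino acids, glutathione synthetase (GSS) adds glycine, glutathione reductase (GSR) returns the oxidized form to the reduced one, and CHAC1 cleaves reduced glutathione. NRF2, the product of NFE2L2, is held down by KEAP1 and, once released by oxidants or electrophiles, binds antioxidant response elements of genes such as GCLM, TXNRD1, SRXN1, NQO1 and HMOX1. CHAC1 belongs to another program, that of ATF4, the factor of the integrated stress response.

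Total counts lay between 18633963 and 24520078 per library. Replicate libraries differed by a chi-square per degree of freedom of 1.43 to 5.20 in 11 groups, while the 8AA libraries of KG-1a at 24 h stood apart with 12.3. Results of that group are therefore also given without A or without B. Of 10 myeloid markers, 9 were above 1 CPM (the read count scaled to its library's total and TMM factor) on average in MV4-11, with CD34 near 0, and their summed level lay between 3763 and 4676 CPM. In KG-1a, 5 of the 10 were, with CD33, MPO, LYZ and FLT3 near 0 and MEIS1 at 0, and the sum lay between 1148 and 1455 CPM. Of 10 markers of other cell types, 0 passed 1 CPM in MV4-11 and 2 in KG-1a, both of them T-cell genes (CD3D and CD3E), with a sum between 216 and 349 CPM. With 8CA at 24 h, 5 of the 9 myeloid markers tested in MV4-11 rose and 3 fell. With 8AA at 24 h 5 rose there and 0 fell. Of all genes tested there, 21.2% rose and 22.7% fell with 8CA, and 13.9% and 15.3% with 8AA. The summed myeloid level in MV4-11 at 24 h was 3958 to 4183 CPM untreated, 3763 to 3779 CPM with 8CA and 3938 to 4020 CPM with 8AA. In KG-1a at 24 h the summed myeloid level was 1244 to 1245 CPM untreated, 1175 to 1200 CPM with 8CA and 1450 to 1455 CPM with 8AA. With 8AA there, 4 of 9 rose and 0 fell (median log2 change 0.54), beside 25.4% and 26.6% of all genes tested. Of the 3 markers of other cell types tested there, 1 rose (median 0.64), and their sum was 298 to 305 CPM untreated, 216 to 224 CPM with 8CA and 287 to 349 CPM with 8AA. The part of these markers in the results was not tested.

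Per length of exon, TXNRD1, thioredoxin reductase 1, had the highest untreated level of the 10 genes in both lines and HMOX1, heme oxygenase 1, the lowest. In untreated MV4-11 at 24 h, the order in RPKM (CPM per kilobase of exon, mean ± SD, n = 2) was TXNRD1 (40.6 ± 0.678), NFE2L2 (25.2 ± 1.04), GSR (16.3 ± 0.153), GSS (15.9 ± 0.0777), SRXN1 (11.4 ± 0.146), GCLM (11.1 ± 0.299), NQO1 (10.3 ± 0.814), GCLC (2.58 ± 0.0640), CHAC1 (1.93 ± 0.180) and HMOX1 (0.275 ± 0.0544). Among neighbors in this order, SRXN1 and GCLM, and GCLM and NQO1, differed by less than their spread. In untreated KG-1a at 24 h the order was TXNRD1 (60.3 ± 0.847), GSR (30.2 ± 0.600), GSS (25.3 ± 1.03), SRXN1 (21.4 ± 0.722), NFE2L2 (18.0 ± 0.397), GCLC (15 ± 0.564), GCLM (11.6 ± 0.681), NQO1 (3.10 ± 0.191), CHAC1 (2.34 ± 0.00650) and HMOX1 (1.34 ± 0.142).

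At 8 h the lines differed most in GCLC and NQO1, and at 24 h in GCLC and HMOX1 (log2 differences of -2.44 and -2.16, with NQO1 at 1.83). GCLC was lower in MV4-11 than in KG-1a by 2.54 ± 0.0671 on the log2 scale at 8 h (here and below, ± after a log2 value is the SE of the fit), with an edgeR adjusted p of 7.62e-21. NQO1, a quinone reductase, was higher in MV4-11, with a log2 difference of 1.79 ± 0.0815 (edgeR adjusted p = 4.58e-16). HMOX1, GSR, SRXN1, TXNRD1 and GSS were lower in MV4-11 and NFE2L2 was higher, with log2 differences between -1.44 and 0.52 at 8 h. At both times 2 members were higher and 6 lower in MV4-11, beside 82.2% of all genes tested, 40.1% higher and 42.1% lower at 8 h, and 82%, 41% and 41% at 24 h, so a difference between the lines was the rule in these data. CHAC1 and GCLM did not pass the test between untreated lines (log2 differences of -0.29 and -0.09 at 8 h, with 95% intervals of -0.65 to 0.07 and -0.22 to 0.04). Within untreated cells, time alone went with change. From 8 h to 24 h NQO1 fell in MV4-11 by 0.52 on the log2 scale, as 1 of the 10 members against 5.54% of all genes tested, 3.38% higher and 2.16% lower, and in KG-1a NQO1, GCLM, TXNRD1 and GSR fell by 0.54, 0.31, 0.28 and 0.25, as 4 of 10 against 4.45%, 2.49% and 1.97%. Without 8 h library A, 8 h library B, 24 h library A or 24 h library B, the number in KG-1a was between 0 and 2. Fewer of all genes tested were called in those fits too. Each drug was compared with the untreated libraries of its own time.

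**Figure D1:**
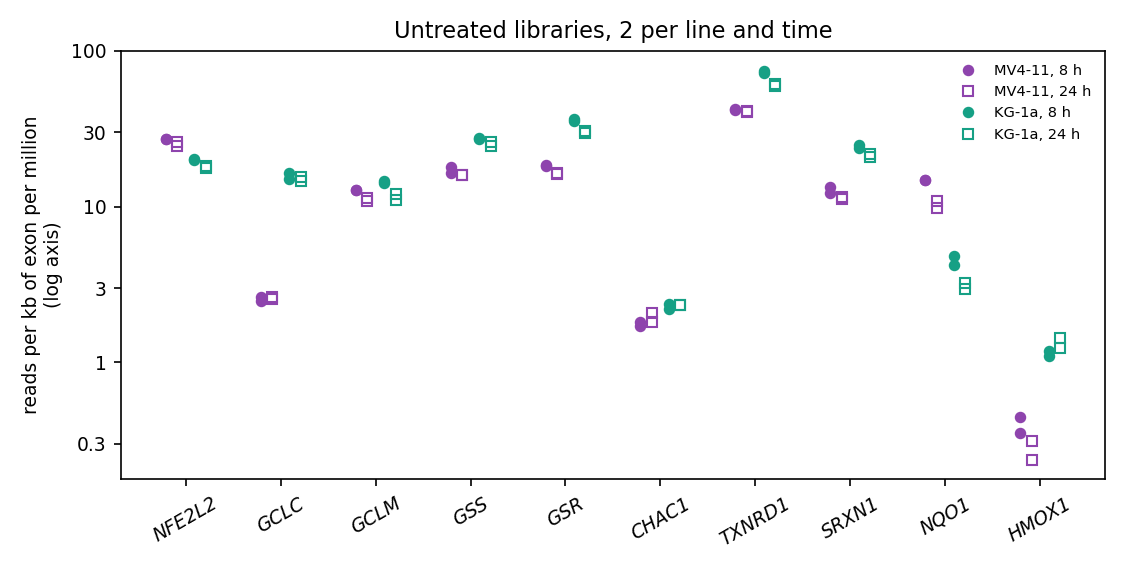
Level of the 10 genes in each untreated library in RPKM on a log axis, by line (color) and time (filled circles 8 h, open squares 24 h). GCLC sits near 2.58 RPKM in MV4-11 and near 15 RPKM in KG-1a at 24 h, while NQO1 is the other way around, near 10.3 and 3.10 RPKM.

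CHAC1 had the largest responses of the 10 genes in KG-1a, upward with 8CA and downward with 8AA. In KG-1a at 8 h, CHAC1 stood at 3.68 and 3.44 CPM in the untreated libraries, 33.1 and 34.3 CPM with 8CA, and 0.582 and 0.517 CPM with 8AA. The 3 groups did not overlap, with 8CA highest and 8AA lowest. At 24 h the untreated libraries held 3.63 and 3.64 CPM, those with 8CA 56.8 and 53.4 CPM, and those with 8AA 0.459 and 0.591 CPM. The same order held at both times. Upon 8CA, CHAC1 rose 9.46-fold at 8 h (log2 3.24 ± 0.0978, edgeR adjusted p = 1.18e-11) and 15.1-fold at 24 h (log2 3.92 ± 0.0929, edgeR adjusted p = 1.48e-13). Upon 8AA it fell to 0.156 of the untreated level at 8 h (log2 -2.68 ± 0.211, edgeR adjusted p = 2.79e-07) and to 0.144 at 24 h (log2 -2.79 ± 0.215, edgeR adjusted p = 4.80e-08). The low levels rest on 13 and 12 reads at 8 h and on 11 and 12 reads at 24 h. Without library A or B of 8AA at 24 h the change was -2.61 or -2.97. In bulk RNA, a change in every cell and a change in the share of cells that express the gene cannot be told apart.

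In MV4-11 CHAC1 moved in the same directions at 24 h, and at 8 h only its fall with 8AA was called. At 8 h it lay at 2.81 and 2.68 CPM untreated, 2.17 and 3.27 CPM with 8CA, and 1.13 and 1.53 CPM with 8AA. The 8CA libraries spanned the untreated ones, and the 8AA libraries lay below them. At 24 h it lay at 2.81 and 3.21 CPM untreated, 8.62 and 9.33 CPM with 8CA, and 1.68 and 1.85 CPM with 8AA, with no overlap between groups. With 8CA the log2 change was -0.03 at 8 h (95% interval -0.47 to 0.41), and at 24 h CHAC1 rose 2.97-fold (log2 1.57 ± 0.160, edgeR adjusted p = 1.96e-06). With 8AA it fell by 1.03 ± 0.237 on the log2 scale at 8 h (edgeR adjusted p = 0.00407) and by 0.77 ± 0.219 at 24 h (edgeR adjusted p = 0.0144). The call at 24 h was lost without 8AA library A (log2 -0.72, edgeR adjusted p = 0.092) and without untreated library B (log2 -0.68, edgeR adjusted p = 0.0999).

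**Figure D2:**
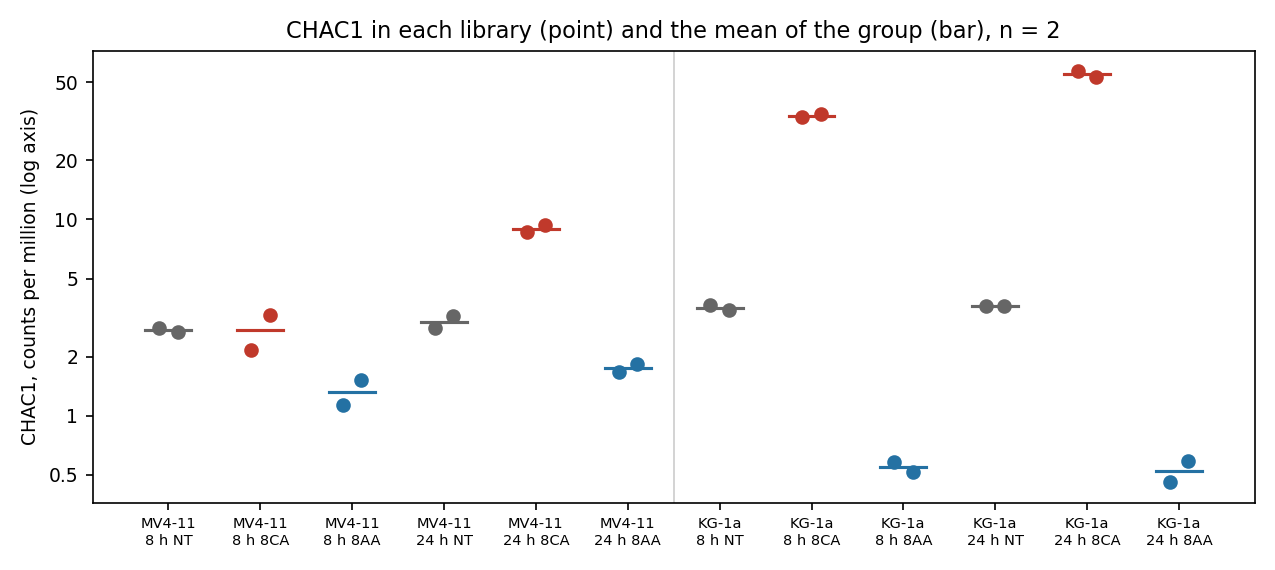
CHAC1 in CPM on a log axis in all 24 libraries (points), with the mean of each group of 2 (bars), untreated (NT) in gray, 8CA in red and 8AA in blue. In KG-1a the 8CA libraries reach 56.8 CPM and the 8AA libraries go down to 0.459 CPM, and in MV4-11 the 8CA libraries leave the untreated level only at 24 h.

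CHAC1 lies at chr15:41245636-41248717 on the plus strand in the deposited table, with 1.557 kb of exon. Genes of the ATF4 program often carry a C/EBP-ATF element, so its promoter window is shown, from RefSeq on GRCh38.p14 (chr15:40953221-40953520, plus strand, from 250 bases before to 50 after the start site), with the match to the element in capitals.
CHAC1: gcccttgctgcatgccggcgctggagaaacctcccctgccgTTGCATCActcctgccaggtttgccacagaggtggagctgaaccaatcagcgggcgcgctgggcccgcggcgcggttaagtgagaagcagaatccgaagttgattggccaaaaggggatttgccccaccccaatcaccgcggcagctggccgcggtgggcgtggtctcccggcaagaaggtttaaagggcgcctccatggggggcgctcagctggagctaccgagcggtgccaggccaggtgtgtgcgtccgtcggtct
The letters TGATGNAA, on either strand, were found 209 bases before the start site, and 1270 of 35116 promoter windows (3.62%) hold them. The table of windows holds 7 of the 10 members in 9 windows, and CHAC1 was the only one of the 7 with this match.

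The subunits of glutamate-cysteine ligase went apart in MV4-11, where GCLC, the catalytic subunit, rose and GCLM, the modifier, fell. GCLC (chr6:53362140-53409927, minus strand) lay at 15.7 and 16.3 CPM untreated at 24 h, 20.9 and 21.6 CPM with 8CA, and 19.3 and 17.8 CPM with 8AA. Both 8CA libraries lay above the 8AA libraries, and these above the untreated ones. With 8CA at 24 h GCLC rose by a log2 change of 0.41 ± 0.0768 (edgeR adjusted p = 0.00052). With 8AA at 24 h its change was 0.21 ± 0.0789 and missed the threshold (edgeR adjusted p = 0.0541). It was called under library-size scaling (log2 0.26, edgeR adjusted p = 0.0204), upper-quartile scaling (log2 0.25, edgeR adjusted p = 0.0257), a minimum of 10 counts (edgeR adjusted p = 0.0436), the fit of all 24 libraries (edgeR adjusted p = 0.0279) and the replicate block (edgeR adjusted p = 0.045). At 8 h it was 15.3 to 16.4 CPM untreated, 18.8 and 19.1 CPM with 8CA and 19.1 and 18.8 CPM with 8AA, a log2 change of 0.26 with each drug (edgeR adjusted p = 0.0493 with 8CA and 0.0209 with 8AA). Those calls were lost when 8 h libraries were left out, with 8CA for each of the 4 (log2 0.20 to 0.30, edgeR adjusted p up to 0.259) and with 8AA for untreated B (log2 0.20), 8AA A (log2 0.25) and 8AA B (log2 0.27). In KG-1a GCLC was called once, with 8CA at 24 h (95.8 and 90.9 CPM untreated, 103 and 107 CPM treated, log2 0.17 ± 0.0590, edgeR adjusted p = 0.0284), and this call was lost without any 1 of the 4 libraries (log2 0.13 to 0.19, edgeR adjusted p 0.0569 to 0.204). With 8AA at 24 h its log2 change in KG-1a was -0.11 (edgeR adjusted p = 0.143), -0.05 without 8AA library A, and -0.17 without 8AA library B, where it was called lower (edgeR adjusted p = 0.0139).

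GCLM (chr1:94352590-94375012, minus strand) lay in MV4-11 at 39.1 and 39.1 CPM untreated at 8 h, 37.2 and 35.5 CPM with 8CA, and 30.4 and 28.1 CPM with 8AA. At 24 h it lay at 34.7 and 33.4 CPM untreated, 26.0 and 26.6 CPM with 8CA, and 25.4 and 25.2 CPM with 8AA. At both times the libraries of both drugs lay below the untreated ones, and at 8 h 8CA was not called. It fell upon 8AA by 0.42 ± 0.0640 on the log2 scale at 8 h (edgeR adjusted p = 0.00016) and by 0.43 ± 0.0656 at 24 h (edgeR adjusted p = 0.000194), and upon 8CA by 0.37 ± 0.0647 at 24 h (edgeR adjusted p = 0.000252). In KG-1a at 24 h it was 34.0 and 37.0 CPM untreated, 35.3 and 39.8 CPM with 8CA, and 28.3 and 27.9 CPM with 8AA. There it fell with 8AA (log2 -0.34 ± 0.0725, edgeR adjusted p = 0.0011, -0.35 without library A and -0.33 without library B) and was not called with 8CA (log2 0.08, 95% interval -0.07 to 0.23). Taken per length of exon, the ratio of GCLC to GCLM RPKM in MV4-11 was 0.193 and 0.207 in untreated libraries at 8 h and 0.224 and 0.241 at 24 h. It was 0.397 and 0.403 with 8CA at 24 h and 0.349 and 0.376 with 8AA. In KG-1a the ratio at 24 h was 1.21 and 1.39 untreated, 1.33 and 1.44 under 8CA and 1.45 and 1.60 under 8AA, and the 8CA and untreated libraries overlapped there. At 8 h it was 1.03 and 1.17 untreated, 0.949 and 1.02 under 8CA, below both untreated libraries, and 1.01 and 1.05 under 8AA.

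GSS (chr20:33516236-33543601, minus strand), which completes glutathione, was called in 0 of the 8 drug comparisons by edgeR, with log2 changes between -0.15 and 0.16. Its unadjusted p was under 0.05 in 1 of the 8, DESeq2 called 0, and its 95% intervals reached from -0.31 to 0.31. Other edgeR settings called it with 8AA in MV4-11 at 8 h, namely library-size and upper-quartile scaling (log2 0.20 each, edgeR adjusted p = 0.0343 and 0.0383) and the replicate block (log2 0.16, edgeR adjusted p = 0.0286), and the fit with no filter on low counts called it lower with 8AA at 24 h in KG-1a (log2 -0.16, edgeR adjusted p = 0.0443). In KG-1a at 24 h it was 66.7 and 70.7 CPM untreated and 67.5 and 55.7 CPM with 8AA, so the 8AA and untreated libraries overlapped. This pair decided the value. Without 8AA library A the log2 change was -0.31 (edgeR adjusted p = 0.000163), and without library B it was -0.03 (edgeR adjusted p = 0.718).

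GSR (chr8:30535580-30585486, minus strand), which uses NADPH to reduce oxidized glutathione, fell in KG-1a with 8AA and in MV4-11 with 8CA. In KG-1a it was 111 and 115 CPM untreated and 90.9 and 92.5 CPM with 8AA at 8 h, and 96.5 and 93.8 CPM untreated and 74.0 and 66.7 CPM with 8AA at 24 h. The 8AA libraries lay below the untreated ones at both times. The log2 changes were -0.30 ± 0.0536 at 8 h (edgeR adjusted p = 0.000478) and -0.43 ± 0.0552 at 24 h (edgeR adjusted p = 8.61e-06, -0.52 without library A and -0.37 without library B). With 8CA, GSR in KG-1a was 104 and 108 CPM at 8 h and 98.0 and 97.0 CPM at 24 h, and neither time was called. In MV4-11 at 24 h it was 51.5 and 50.8 CPM untreated, 43.3 and 41.3 CPM with 8CA and 45.7 and 50.8 CPM with 8AA. With 8CA it fell there, with a log2 change of -0.27 ± 0.0619 (edgeR adjusted p = 0.00214), against -0.08 (95% interval -0.22 to 0.05) with 8AA.

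TXNRD1 and SRXN1 belong to the thioredoxin and peroxiredoxin arm, in which TXNRD1 reduces thioredoxin and SRXN1, sulfiredoxin, repairs overoxidized peroxiredoxins. TXNRD1 (chr12:104606488-104744085, plus strand) fell in 6 of the 8 drug comparisons, in all 4 of MV4-11 and in both with 8AA of KG-1a. In KG-1a it was 503 and 482 CPM untreated, 470.3 and 475 CPM with 8CA and 422 and 413 CPM with 8AA at 8 h. At 24 h it was 410.0 and 402 CPM untreated, 404 and 395 CPM with 8CA and 289 and 281 CPM with 8AA, with the 8AA libraries far below the other 4. The log2 changes with 8AA were -0.24 ± 0.0409 (edgeR adjusted p = 0.000347) and -0.51 ± 0.0414 (edgeR adjusted p = 8.31e-08, -0.53 without library A and -0.49 without library B), and those with 8CA were -0.06 and -0.02, with 95% intervals of -0.15 to 0.03 and -0.11 to 0.06. In MV4-11 it was 279 and 287 CPM untreated, 251 and 250.5 CPM with 8CA and 236 and 239 CPM with 8AA at 8 h. At 24 h it was 270.5 and 277 CPM untreated, 240.2 and 249.9 CPM with 8CA and 242 and 251 CPM with 8AA. All treated libraries lay below all untreated ones, and the log2 changes were -0.17, -0.25, -0.16 and -0.15 in the order 8CA and 8AA at 8 h, 8CA and 8AA at 24 h (edgeR adjusted p = 0.0148, 0.000308, 0.00534 and 0.011). Those with 8CA were lost at 8 h without untreated B (log2 -0.17) or 8CA B (log2 -0.18) and at 24 h without 8CA A (log2 -0.13), and that with 8AA at 24 h without untreated B (log2 -0.15) or 8AA A (log2 -0.14), with edgeR adjusted p between 0.0574 and 0.0655.

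SRXN1 (chr20:627268-656823, minus strand) fell most with 8AA in KG-1a. It was 87.2 and 82.4 CPM untreated and 72.8 and 71.2 CPM with 8AA at 8 h, and 72.7 and 76.3 CPM untreated, 70.3 and 68.5 CPM with 8CA and 47.7 and 45.0 CPM with 8AA at 24 h. The log2 changes with 8AA were -0.24 ± 0.0530 (edgeR adjusted p = 0.00289) and -0.68 ± 0.0555 (edgeR adjusted p = 8.51e-08, -0.73 without library A and -0.64 without library B). With 8CA they were -0.06 and -0.10, with 95% intervals of -0.18 to 0.05 and -0.22 to 0.01. In MV4-11 at 24 h it was 40.0 and 39.2 CPM untreated, 33.6 and 34.8 CPM with 8CA and 31.1 and 31.2 CPM with 8AA. Both drugs lay below untreated, with log2 changes of -0.21 ± 0.0781 (edgeR adjusted p = 0.0378) and -0.35 ± 0.0796 (edgeR adjusted p = 0.00406). The call with 8CA was lost without any 1 of the 4 libraries (log2 -0.23 to -0.19, edgeR adjusted p 0.0768 to 0.169) and, under scaling by library size or by the upper quartile, missed the threshold at -0.16 and -0.17. The span of SRXN1 in the table contains 14584 bases of SCRT2 and that of TXNRD1 1473 bases of EID3, both on the same strand. The spans of other listed transcripts cover that of NFE2L2 on the opposite strand and that of GCLM on both strands. On its own strand, another listed transcript covers 109178 bases of the span of NFE2L2. How reads in shared stretches were counted is not given, so some could be missing from the counts of these genes.

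At 24 h GCLM, TXNRD1 and SRXN1, all textbook NRF2 targets, fell with each drug in MV4-11 and, in KG-1a, with 8AA. The promoter window of SRXN1 holds no match to the core of the antioxidant response element and is not printed. The promoter windows of GCLM and TXNRD1 are shown, with their matches to this core in capitals. They come from RefSeq on GRCh38.p14, GCLM at chr1:93909381-93909680 on the minus strand, and TXNRD1 at chr12:104215529-104215828 and chr12:104286782-104287081 on the plus strand.
GCLM: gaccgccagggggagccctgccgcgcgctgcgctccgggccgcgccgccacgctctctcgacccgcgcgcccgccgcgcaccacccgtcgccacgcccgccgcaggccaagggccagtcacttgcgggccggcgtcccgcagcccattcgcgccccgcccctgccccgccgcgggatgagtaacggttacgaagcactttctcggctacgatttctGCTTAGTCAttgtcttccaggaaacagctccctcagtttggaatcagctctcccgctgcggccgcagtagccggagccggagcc
TXNRD1, first window: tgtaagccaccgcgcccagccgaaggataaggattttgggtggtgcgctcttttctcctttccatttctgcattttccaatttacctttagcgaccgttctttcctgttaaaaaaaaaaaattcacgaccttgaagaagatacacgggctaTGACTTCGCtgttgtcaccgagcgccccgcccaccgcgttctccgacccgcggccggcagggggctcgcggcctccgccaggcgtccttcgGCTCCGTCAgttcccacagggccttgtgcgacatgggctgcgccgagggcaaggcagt
TXNRD1, second window: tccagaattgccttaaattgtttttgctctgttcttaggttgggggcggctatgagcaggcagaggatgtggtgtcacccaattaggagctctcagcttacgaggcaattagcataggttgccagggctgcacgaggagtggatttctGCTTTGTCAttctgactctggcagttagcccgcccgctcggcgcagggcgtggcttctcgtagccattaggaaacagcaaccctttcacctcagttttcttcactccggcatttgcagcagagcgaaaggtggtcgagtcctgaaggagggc
The letters searched were TGACNNNGC, where N is any base, on both strands. The match starts 34 bases before the start site in GCLM, 99 and 8 bases before it in the first TXNRD1 window and 102 bases before it in the second. Of the 9 member windows 3 hold a match, and of all 35116 windows 4687 do (13.3%). The windows of NFE2L2, GCLC, CHAC1, NQO1 and SRXN1 hold none, which says only that these letters are not in them.

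NQO1 and HMOX1 are the members most often read as markers of NRF2 activity, and their largest called changes were upward, with 8CA in KG-1a. NQO1 (chr16:69743304-69760533, minus strand) in KG-1a at 24 h was 8.37 and 7.67 CPM untreated, 12.9 and 12.7 CPM with 8CA, and 8.68 and 7.29 CPM with 8AA. The 8CA libraries lay above all others, while the 8AA libraries spanned the untreated ones. It rose 1.59-fold with 8CA (log2 0.67 ± 0.11, edgeR adjusted p = 0.000135), and with 8AA its 95% interval was -0.25 to 0.25, with log2 changes of -0.14 without 8AA library A and 0.11 without B. At 8 h it was 12.5 and 10.9 CPM untreated, 12.5 and 12.2 CPM with 8CA, and 14.7 and 14.0 CPM with 8AA, and the rise with 8AA (log2 0.30 ± 0.10, edgeR adjusted p = 0.0296) was lost without untreated B (log2 0.20), 8AA A (log2 0.27) or 8AA B (log2 0.33). In MV4-11 at 24 h NQO1 was 25.2 and 28.1 CPM untreated, 27.0 and 28.5 CPM with 8CA, and 20.5 and 20.7 CPM with 8AA, and it fell with 8AA (log2 -0.37 ± 0.0730, edgeR adjusted p = 0.00131). In that line at 8 h the changes were -0.05 and -0.09 and were not called.

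HMOX1 (chr22:35777060-35790207, plus strand), which opens the heme ring, was read 4 to 17 times per library in MV4-11 and 34 to 68 times in KG-1a. In KG-1a at 24 h it was 1.97 and 2.28 CPM untreated, 2.85 and 3.38 CPM with 8CA, and 1.84 and 1.87 CPM with 8AA, whose log2 change of -0.19 was not called (-0.18 without library A and -0.21 without B). With 8CA it rose by a log2 change of 0.55 ± 0.192 (edgeR adjusted p = 0.0279), a call lost without untreated A (log2 0.43), untreated B (log2 0.66) or 8CA B (log2 0.42) and with DESeq2's Wald test (adjusted p = 0.174). In MV4-11 at 24 h the changes were 0.30 with 8CA and -0.92 with 8AA, with 95% intervals of -0.63 to 1.23 and -2.07 to 0.23, so a change was not detectable at this depth.

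NFE2L2 (chr2:178095031-178257419, minus strand), the gene of NRF2 itself, was called in 3 of the 8 drug comparisons, with log2 changes of at most 0.23. In KG-1a it was 103 and 102 CPM untreated, 116 and 121 CPM with 8CA and 112 and 112 CPM with 8AA at 8 h. At 24 h it was 93.8 and 90.9 CPM untreated, 107 and 109.9 CPM with 8CA and 95.9 and 95.6 CPM with 8AA. Treated libraries lay above untreated ones in all 4 comparisons, by log2 changes of 0.20, 0.12, 0.23 and 0.05 in the order 8CA and 8AA at 8 h, 8CA and 8AA at 24 h. It was called with 8AA at 8 h (edgeR adjusted p = 0.0478) and with 8CA at 24 h (edgeR adjusted p = 0.000734). With 8CA at 8 h it missed the threshold (edgeR adjusted p = 0.0537). There it was called under library-size scaling, a minimum of 10 counts, the replicate block and the fits of 24 or 6 libraries (log2 0.20 to 0.21, edgeR adjusted p 0.00882 to 0.0488). With 8AA at 24 h it was called under library-size scaling (log2 0.15) and upper-quartile scaling (log2 0.13), and its change was 0.05 without 8AA library A as without B. The call with 8AA at 8 h was lost without any 1 of the 4 libraries (log2 0.12 to 0.13, edgeR adjusted p 0.105 to 0.169). In MV4-11 it was called once, with 8CA at 24 h (126 and 133 CPM untreated, 142 and 141 CPM treated, log2 0.13 ± 0.0449, edgeR adjusted p = 0.0308), which was lost without untreated A (log2 0.09), 8CA A (log2 0.12) or 8CA B (log2 0.14).

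Counted over the 10 members, the 8 drug comparisons gave few calls at 8 h with 8CA and more at 24 h and with 8AA, as among all genes. The shares of all genes tested that were called, called higher and called lower stand in brackets. With 8CA at 8 h, 1 member rose and 1 fell in MV4-11 (10.4%, 4.58% and 5.77%) and 1 rose in KG-1a (0.881%, 0.7% and 0.181%). With 8AA at 8 h, 1 rose and 3 fell in MV4-11 (29.2%, 13.6% and 15.6%), and 2 rose and 4 fell in KG-1a (34.7%, 16.7% and 18%). With 8CA at 24 h, 3 rose and 4 fell in MV4-11 (43.9%, 21.2% and 22.7%), and 5 rose and 0 fell in KG-1a (47.4%, 23.4% and 24%). With 8AA at 24 h, 0 rose and 5 fell in MV4-11 (29.1%, 13.9% and 15.3%), and 0 rose and 5 fell in KG-1a (51.9%, 25.4% and 26.6%). Other scalings moved some of these splits. In MV4-11 with 8CA at 8 h, 0 rose and 1 fell under DESeq2 size factors, and with 8AA at 8 h, 2 rose and 3 fell under library-size or upper-quartile scaling. In KG-1a with 8AA at 8 h, 1 rose and 4 fell under DESeq2 size factors, and with 8AA at 24 h 1 rose and 5 fell in each line under library-size or upper-quartile scaling. Under library-size scaling the share of all calls that were lower went from 52.4% to 36.2% in MV4-11 and from 51.2% to 35.5% in KG-1a with 8AA at 24 h. Without 8AA library A or B at 24 h, 0 members rose and 6 fell in KG-1a. The median log2 change of the 10 members at 24 h was 0.05 under 8CA and -0.25 under 8AA for MV4-11. In KG-1a it was 0.12 and -0.27 (the latter -0.33 without 8AA library A and -0.27 without B). The medians of all genes tested lay between 0.00 and 0.01. TMM scaling holds them near 0, so rises and falls are relative to the bulk of genes. Under library-size scaling they were 0.05 in MV4-11 and 0.11 in KG-1a with 8AA at 24 h. The 5 members that rose with 8CA in KG-1a at 24 h were CHAC1, NQO1, HMOX1, NFE2L2 and GCLC, and the 5 that fell there with 8AA were CHAC1, SRXN1, TXNRD1, GSR and GCLM. The comparisons of 8CA and 8AA within a line and time share their untreated libraries.

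**Figure D3:**
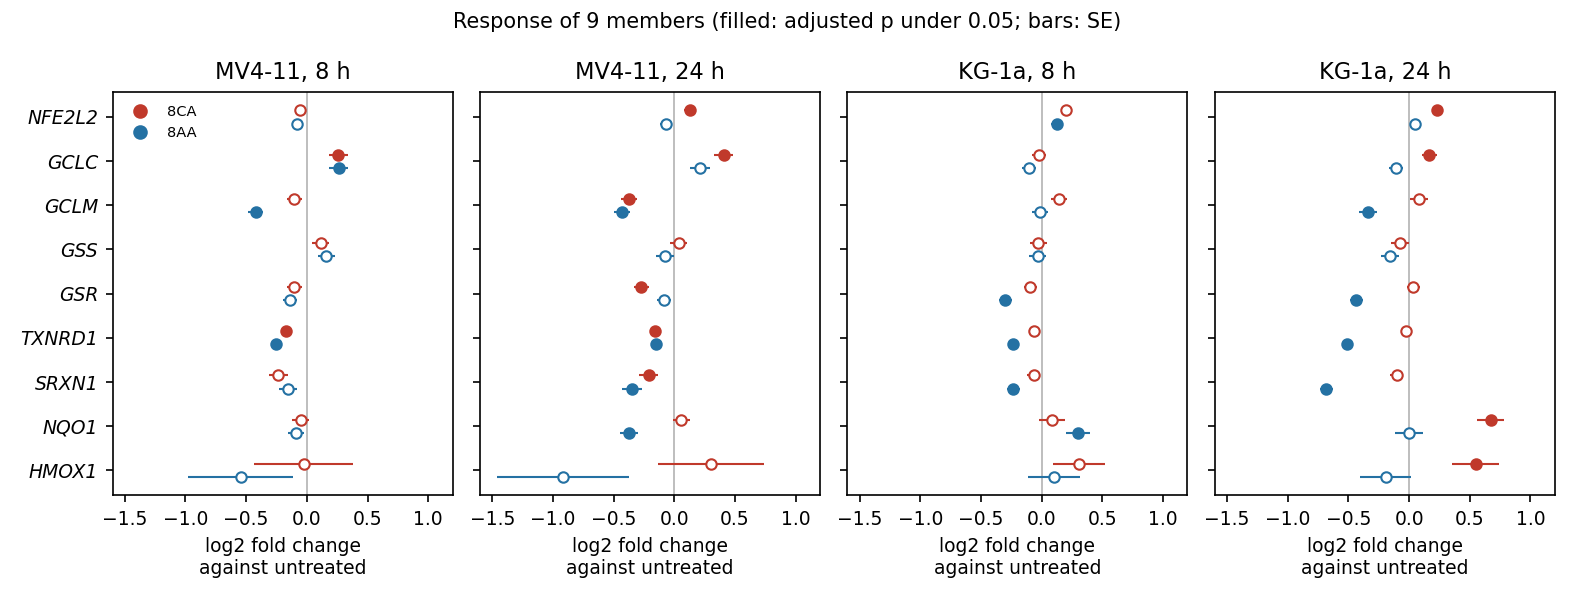
Log2 fold change against untreated (x axis, bars are the SE) of the 9 members other than CHAC1 in each line and time, 8CA in red and 8AA in blue, filled where the adjusted p was under 0.05. With 8AA in KG-1a at 24 h GCLM, GSR, TXNRD1 and SRXN1 lie between -0.68 and -0.34, while with 8CA none of the 9 is called lower there.

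Set directly against each other at the same dose and times, 8AA left most members below 8CA in KG-1a. At 24 h, 9 of the 10 members were lower with 8AA than with 8CA in KG-1a and 0 higher (42% of all genes tested called, 20.3% higher and 21.7% lower). The 9 log2 differences were -6.71 ± 0.127 for CHAC1 (edgeR adjusted p = 3.75e-15), -0.74 for HMOX1, -0.67 for NQO1, -0.58 for SRXN1, -0.49 for TXNRD1, -0.47 for GSR, -0.42 for GCLM, -0.27 for GCLC and -0.18 for NFE2L2, with edgeR adjusted p between 2.28e-07 and 0.00551 for the other 8. Leaving out 8AA library A or B kept these calls, with NQO1 at -0.81 and -0.56 and the median of the 10 members at -0.53 and -0.44, against -0.48 with both. NFE2L2 was lost under library-size scaling (log2 -0.11, edgeR adjusted p = 0.058), and HMOX1 with DESeq2's Wald test (adjusted p = 0.0616). Leaving out 8CA library B lost HMOX1 (log2 -0.62, edgeR adjusted p = 0.064) and NFE2L2 (log2 -0.16, edgeR adjusted p = 0.0551). GSS differed by -0.08 with a 95% interval of -0.24 to 0.07, and by -0.23 (edgeR adjusted p = 0.00364) without 8AA library A. At 8 h in KG-1a, CHAC1 was lower with 8AA by 5.92 ± 0.134 on the log2 scale (edgeR adjusted p = 1.42e-13), and GSR, TXNRD1 and SRXN1 were lower by 0.21, 0.18 and 0.17, 4 of 10 members against 30.4% of all genes tested, 14.7% higher and 15.8% lower. The last 3 were lost without some of the libraries, GSR without 8CA B (log2 -0.18) or 8AA A (log2 -0.20), TXNRD1 without 8AA B (log2 -0.16) and SRXN1 without any 1 of the 4 (log2 -0.19 to -0.15).

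In MV4-11 the analogs differed in fewer members. At 24 h CHAC1 was lower with 8AA than with 8CA by 2.34 ± 0.178 on the log2 scale (edgeR adjusted p = 2.40e-07), NQO1 by 0.43 ± 0.0719 (edgeR adjusted p = 0.000642) and NFE2L2 by 0.20 ± 0.0450 (edgeR adjusted p = 0.00575). GSR was higher by 0.19 (edgeR adjusted p = 0.0413), a call lost without 8CA A (log2 0.22), 8CA B (log2 0.15) or 8AA B (log2 0.11). That makes 3 lower and 1 higher of 10, beside 21.2% of all genes tested, 11.7% higher and 9.48% lower. At 8 h CHAC1 was lower by 1.00 ± 0.237 (edgeR adjusted p = 0.0195) and GCLM by 0.32 ± 0.0643 (edgeR adjusted p = 0.00756), 2 of 10 beside 6.66% of all genes tested, 2.96% higher and 3.7% lower. CHAC1 was lost there without 8CA B (log2 -0.69) or 8AA A (log2 -0.82), and GCLM without 8CA A (log2 -0.27) or 8AA B (log2 -0.25). Of the members not called at 24 h, GCLM differed by -0.05 (95% interval -0.20 to 0.09), TXNRD1 by 0.01 (-0.08 to 0.09), SRXN1 by -0.14 (-0.30 to 0.03), GSS by -0.11 (-0.26 to 0.04), GCLC by -0.19 (-0.35 to -0.03) and HMOX1 by -1.22 (-2.29 to -0.14), the last 2 with intervals below 0 but adjusted p-values above the threshold. Over the 10 members and 4 settings, 40 pairs were compared, each adjusted over all genes tested in its comparison.

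**Figure D4:**
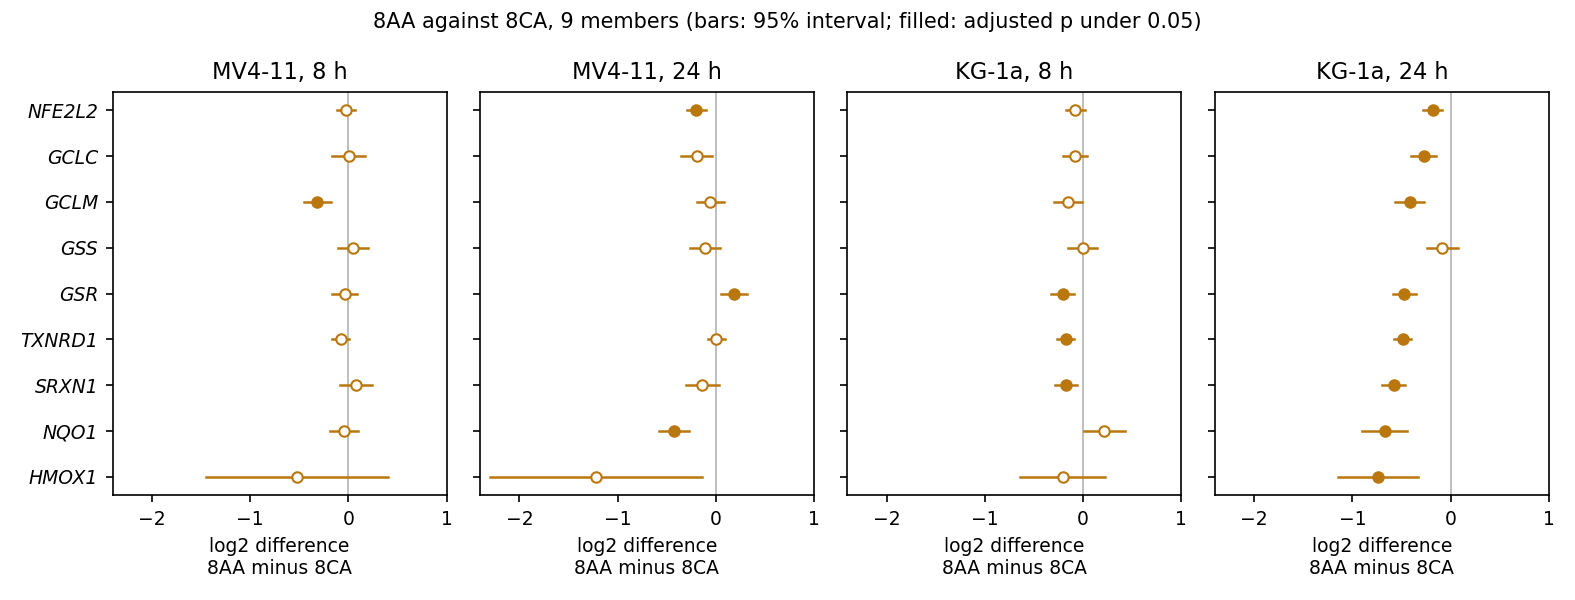
Log2 difference 8AA minus 8CA (x axis) of the 9 members other than CHAC1 with its 95% interval, by line and time, filled where the adjusted p was under 0.05. In KG-1a at 24 h the 8 filled points lie between -0.74 and -0.18, and GSS, at -0.08, has an interval that spans 0.

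The responses were also tested for a difference between times and between lines. The response to 8CA was larger at 24 h than at 8 h for CHAC1 in MV4-11 (1 of 10 members beside 16.3% of all genes tested, 6.48% higher and 9.83% lower) and for CHAC1 and NQO1 in KG-1a (2 of 10 beside 23.9%, 11.2% and 12.7%). The response to 8AA was lower at 24 h for GCLM, TXNRD1 and SRXN1 in KG-1a (3 of 10 beside 18.3%, 7.64% and 10.7%, and without 24 h 8AA library A also for GSR and GSS), and for 0 of 10 members in MV4-11 (4.63%, 2.51% and 2.12%), where 2 had an unadjusted p under 0.05 and DESeq2 called 0. Between lines, CHAC1 differed in all 4 settings. Its log2 response to 8CA was lower in MV4-11 than in KG-1a by 3.26 ± 0.224 at 8 h (edgeR adjusted p = 2.97e-09) and by 2.33 ± 0.195 at 24 h (edgeR adjusted p = 1.60e-08), and its response to 8AA was less negative by 1.70 ± 0.341 (edgeR adjusted p = 0.00189) and 2.04 ± 0.331 (edgeR adjusted p = 7.01e-05). In number, 2 members differed between lines with 8CA at 8 h (1.15% of all genes tested, 0.427% higher and 0.726% lower), 4 with 8AA at 8 h (11.1%, 7.49% and 3.6%), 4 with 8CA at 24 h (11.2%, 5.76% and 5.44%) and 5 with 8AA at 24 h (22.3%, 13.8% and 8.51%). The last 5 were all higher in MV4-11, and under other scalings 5 were higher and 1 or 2 lower.

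Of the genes that bring cysteine, the limiting amino acid of glutathione, into the cell or make it, those called at 24 h rose with 8CA and fell with 8AA, 5 of 5 and 4 of 5 tested in KG-1a and 4 of 7 and 5 of 7 in MV4-11. SLC7A11, the cystine exchanger, and SLC3A2, its heavy chain, rose with 8CA in KG-1a at both times and in MV4-11 at 24 h, and fell with 8AA in all 4 comparisons. In KG-1a at 24 h SLC7A11 was 94.9 to 103 CPM untreated, 499 to 529 CPM with 8CA and 45.1 to 65.4 CPM with 8AA. Its log2 changes were 2.38 and -0.85, the latter -0.60 without 8AA library A and -1.13 without B. In MV4-11 at 24 h SLC7A11 was 10.6 to 12.6 CPM untreated, 31.2 to 31.4 CPM with 8CA and 5.30 to 5.83 CPM with 8AA, with log2 changes of 1.43 and -1.06. At 8 h in MV4-11 its fall with 8AA (log2 -0.55) was lost without 8AA library B (log2 -0.37). SLC3A2 changed at 24 h by 1.77 with 8CA and -0.24 with 8AA in KG-1a and by 0.36 and -0.45 in MV4-11. SLC1A5, a transporter of glutamine and other neutral amino acids, changed in KG-1a at 24 h by 1.10 and -1.11. The transporter gene SLC7A8 rose with 8AA in MV4-11 at 8 h (log2 1.29), a call lost without untreated A, untreated B or 8AA A (log2 1.21 to 1.31). Of the 7 genes of this list, 5 were tested in KG-1a, and with 8CA at 24 h all 5 rose, with a median log2 change of 1.10 beside 0.01 over all genes. With 8AA 4 fell and 0 rose there (median -0.24), also without library A or B. In MV4-11, with 7 tested at 24 h, 4 rose and 0 fell with 8CA (median 0.36) and 0 rose and 5 fell with 8AA (median -0.42). At 8 h, 2 rose and 0 fell with 8CA and 1 rose and 4 fell with 8AA in KG-1a. In MV4-11 at 8 h, 0 rose and 1 fell with 8CA and 1 rose and 5 fell with 8AA. Of all genes tested at 24 h, 23.4% rose with 8CA and 26.6% fell with 8AA in KG-1a, and 21.2% and 15.3% in MV4-11. At 8 h the shares higher and lower with 8CA were 0.7% and 0.181% in KG-1a and 4.58% and 5.77% in MV4-11. With 8AA they were 16.7% and 18% in KG-1a and 13.6% and 15.6% in MV4-11.

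**Figure D5:**
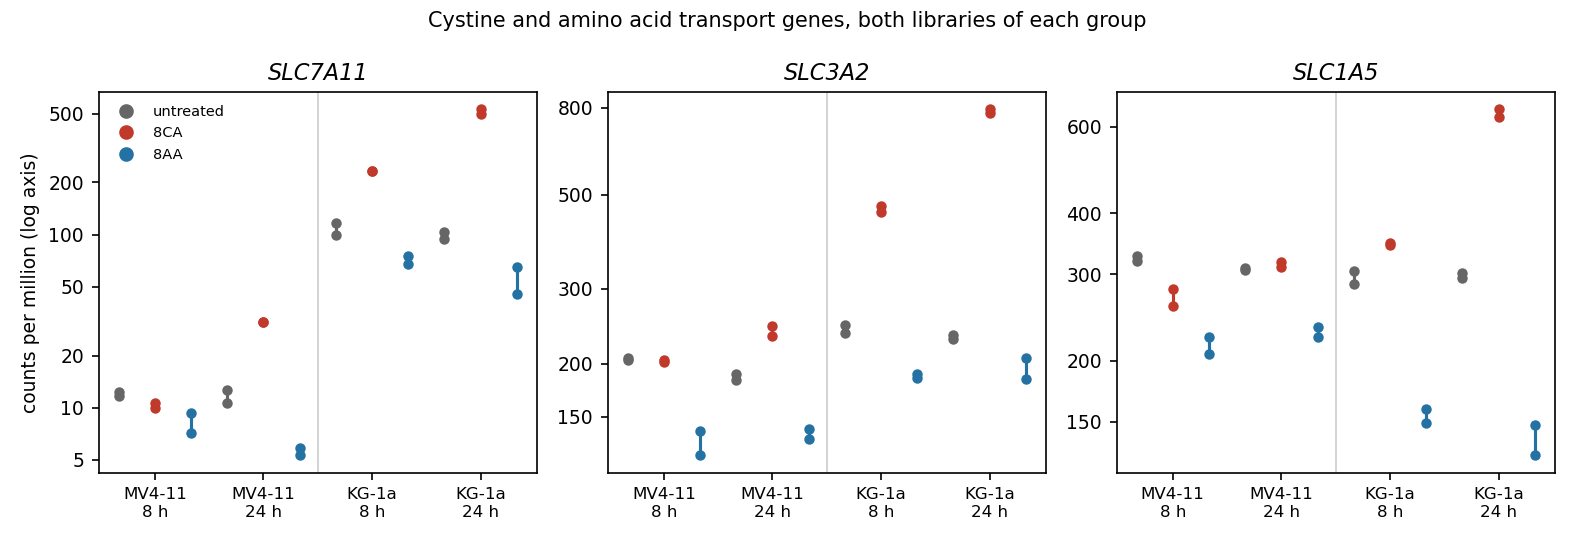
Level of SLC7A11, SLC3A2 and SLC1A5 in CPM on a log axis, with both libraries of each group joined by a line, untreated in gray, 8CA in red and 8AA in blue. SLC7A11 reaches 529 CPM with 8CA in KG-1a at 24 h and lies between 45.1 and 65.4 CPM with 8AA.

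Of the 9 listed genes of the ATF4 branch of the stress response, a program that includes CHAC1, those called at 24 h rose with 8CA and, except for DDIT3 in KG-1a, fell with 8AA. Of all genes tested, 0.7% rose with 8CA in KG-1a at 8 h and 23.4% at 24 h. In MV4-11 4.58% rose and 5.77% fell with 8CA at 8 h, and 21.2% rose at 24 h. With 8AA at 24 h 26.6% fell and 25.4% rose in KG-1a, and 15.3% fell in MV4-11. Of the ATF4 list, with 8CA 7 of the 9 rose in KG-1a at 8 h and all 9 at 24 h (medians 0.61 and 2.18). In MV4-11 0 rose and 2 fell at 8 h and 7 rose at 24 h (medians -0.01 and 0.66). With 8AA at 24 h, 8 fell and 1 rose in KG-1a (median -0.72), also without library A or B, and 6 fell in MV4-11 (median -0.48). SESN2, a leucine sensor, went from 8.82 to 9.95 CPM untreated to 62.8 to 63.4 CPM with 8CA in KG-1a at 24 h, a log2 rise of 2.75. The mTORC1 inhibitor gene DDIT4 rose there by 2.69, DDIT3, the gene of CHOP, by 2.41, and ASNS, asparagine synthetase, by 2.29. With 8AA in the same cells the log2 changes of SESN2, DDIT4, DDIT3 and ASNS were -0.45, -0.30, 0.89 and -0.74, so DDIT3 was the 1 that rose. DDIT4 was lost there without untreated library B (log2 -0.26), and was -0.45 without 8AA library A and -0.19 without B. Of the 21 list genes named by the rule and called with 8AA in KG-1a at 24 h, 18 kept the call without A and without B, and GSTM2, GGT5 and RBX1 did not. By pattern over the 24 libraries, after centering each line on its own mean, the 3 genes most like CHAC1 among 10794 were ATF4 (Pearson r = 0.973), VEGFA (r = 0.959) and ATF3 (r = 0.958), and ATF4 and ATF3 are on this list. For SRXN1 they were NPM1 (r = 0.954), BZW2 (r = 0.946) and HSPA9 (r = 0.944). Among the members, SRXN1, TXNRD1 and GSR were most alike (r = 0.852 to 0.900), followed by GCLM with each of them (r = 0.795 to 0.817), while GCLC and GCLM had an r of -0.21. These correlations share libraries, drugs and depth and are descriptions.

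More of the other genes of the thioredoxin and glutathione systems fell than rose at 24 h, apart from the genes of glutathione use with 8AA in MV4-11. Of the thioredoxin and peroxiredoxin list, 13 of 22 tested fell and 2 rose with 8CA in KG-1a at 24 h (median -0.30), and 12 of 20 fell and 2 rose in MV4-11 (median -0.28). Of all genes tested, 24% were lower and 23.4% higher in KG-1a and 22.7% and 21.2% in MV4-11. With 8AA 11 fell and 4 rose in KG-1a (12 and 4 without library A, 9 and 6 without B) and 7 fell and 3 rose in MV4-11, where 26.6% and 25.4% of all genes were lower and higher in KG-1a and 15.3% and 13.9% in MV4-11. PRDX4, a peroxiredoxin of the endoplasmic reticulum, fell with 8CA at 24 h by 0.97 in KG-1a and by 0.63 in MV4-11. TXNIP, the inhibitor of thioredoxin, rose in all 8 drug comparisons, by 0.51 to 1.69, with 62.0 to 64.5 CPM untreated, 147 to 149 CPM with 8CA and 199 to 208 CPM with 8AA in KG-1a at 24 h. SESN3, a sestrin, rose with 8AA in all 4 comparisons (0.68 to 1.02), its log2 changes with 8CA were -0.08 to 0.08, and it was higher with 8AA than with 8CA in all 4 direct tests (0.76 to 0.97). Of the genes of glutathione use and turnover, 23 were tested in each line, and with 8CA at 24 h 15 fell and 2 rose in KG-1a (median -0.25) and 8 fell in MV4-11 (median -0.12). With 8AA 10 fell and 5 rose in KG-1a, 11 and 2 without library A and 10 and 5 without B, and 3 fell and 5 rose in MV4-11. CHAC2, which cleaves glutathione as CHAC1 does, fell in KG-1a at 24 h with both drugs, by 0.86 with 8CA (10.6 to 12.7 CPM untreated, 5.93 to 6.90 CPM treated) and by 0.62 with 8AA. Its fall with 8CA in MV4-11 (log2 -0.59) was lost without 8CA library B (log2 -0.40). The exporter gene ABCC4 fell by 0.93 with 8AA in KG-1a at 24 h. GSTM2, a glutathione transferase, and GGT5, a gamma-glutamyl transferase, rose there by 1.32 and 1.00 from means of 0.522 and 0.627 CPM, and these calls were lost, for GSTM2 without 8AA B (log2 0.99) and for GGT5 without untreated A (log2 1.06), untreated B (log2 0.94) or 8AA A (log2 0.90).

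At 24 h NRF2's own regulators were called in both directions, except with 8AA in MV4-11. More of its further targets fell than rose in each drug comparison at 24 h. Of all genes tested at 24 h, 23.4% rose and 24% fell with 8CA in KG-1a, and 21.2% and 22.7% in MV4-11. With 8AA these shares were 25.4% and 26.6% in KG-1a and 13.9% and 15.3% in MV4-11. Of 11 regulators, with 8CA at 24 h 4 rose and 2 fell in KG-1a and 2 rose and 3 fell in MV4-11. With 8AA 5 rose and 2 fell in KG-1a (5 and 3 without library A, 4 and 2 without B), and 0 rose and 2 fell in MV4-11. SQSTM1, the gene of p62, which draws KEAP1 away from NRF2, rose with 8CA in KG-1a at 24 h by 0.56. MAFG, a small MAF partner of NRF2, rose there by 0.45, and its relative MAFF fell in MV4-11 at 24 h by 0.75 with 8CA and 1.02 with 8AA. RBX1, of the ubiquitin ligase that degrades NRF2, rose by 0.94 with 8AA in KG-1a at 24 h, a call lost without untreated B (log2 0.63) or 8AA B (log2 0.57). Of the other NRF2 targets, with 8CA at 24 h 2 of 16 tested rose and 4 fell in KG-1a, and 2 of 18 rose and 9 fell in MV4-11. With 8AA 2 rose and 9 fell in KG-1a (1 and 11 without library A, 2 and 7 without B), and 0 rose and 5 fell in MV4-11. Besides SLC7A11, which is on this list too, PRDX1, a peroxiredoxin, fell at 24 h in all 4 comparisons by 0.51 to 0.91. PIR fell with 8AA in MV4-11 at 24 h by 1.26, a call lost without any 1 of the 4 libraries (log2 -1.41 to -1.11), and OSGIN1 with 8AA in KG-1a by 0.93, lost without untreated A (log2 -0.74). In the heme and ferritin list of 5 genes, with 8CA at 24 h 1 rose and 2 fell in KG-1a. In MV4-11 1 rose and 3 fell. With 8AA 0 rose and 2 fell in KG-1a, and 1 rose and 0 fell in MV4-11. FTH1, the ferritin heavy chain, rose with 8CA at 24 h by 0.69 in KG-1a and 0.26 in MV4-11. FTL, the light chain, fell with 8AA in KG-1a at 24 h by 0.56 (0.72 without library A and 0.42 without B). SOD1, a superoxide dismutase, fell with both drugs at 24 h in both lines, by 0.30 to 0.44, and the catalase gene CAT fell with 8CA at 24 h by 0.20 in KG-1a and 0.19 in MV4-11.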

How the data were processed

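RNA was sequenced from 24 libraries of MV4-11 and KG-1a. The authors deposited raw read counts per gene in 1 table, with gene positions, exon length and strand. The submitters' processing notes name Trimmomatic, STAR 2.6.0, HTSeq 0.11.1 and edgeR, and the builds hg19 and hg38 with no roles. Gene positions in the table differ from those of GRCh38, so they are read as hg19. Whether reads were counted by strand is not given in the sources used here. Groups follow the sample labels, and the hours of untreated libraries come from the titles.

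Counts were tested as deposited with edgeR 4.0.16 (R 4.3.3), by its quasi-likelihood test after TMM scaling. One model was fitted per line (12800 genes in MV4-11, 12711 in KG-1a, after filterByExpr with a minimum count of 10) and one over all 24 libraries (14055 genes) for differences between lines. P-values were adjusted by the Benjamini-Hochberg method over all genes tested in a comparison, and called means an adjusted p under 0.05. The 10 members, the gene lists and the tests were chosen with earlier results of these data known. In the further lists, the 4 genes with the largest called drug response were named, and for the members with the largest responses the 3 genes most alike in pattern. CPM scales each count by the total of its library and its TMM factor within the line, and RPKM divides it by the exon length in the table.

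Total counts were 18633963 to 24520078. Counts were simulated for the KG-1a 8AA comparison at 24 h (12470 genes), with 98 genes changed by 0.7 on the log2 scale and 100 by 1.5. The test recovered 75.5% and 94.0% of these, with 5 false calls, and the other simulated comparisons gave 5 to 15. Each gene's spread was that of the fit of the whole line, and few genes changed, while 6600 were called in the data. Recovery at the wider spread of this pair was therefore not measured. Alternatives were other scalings, other filters, the library letter as a block, fits of 24 or 6 libraries, DESeq2 1.42.0, and leaving out each library. Those for untreated comparisons and further lists were chosen after seeing the data. Promoter windows came from RefSeq tables on GRCh38.p14, which held 7 of the 10 members.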

Additional observations from a re-analysis of the deposited data

Results flagged for a closer look

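The 10 members were tested in 4 comparisons of responses between times and 4 between lines. These tests found 21 differences, each given here as a log2 difference with its edgeR adjusted p. Of all genes tested, 4.63% to 23.9% were called in the comparisons between times and 1.15% to 22.3% in those between lines. With 8CA, the response at 24 h minus that at 8 h was 1.60 for CHAC1 in MV4-11 (adjusted p = 0.000895), and 0.68 for CHAC1 (adjusted p = 0.00595) and 0.59 for NQO1 (adjusted p = 0.0109) in KG-1a. The difference for NQO1 was lost without untreated library A at 8 h (0.47) and without untreated library B at 24 h (0.53). With 8AA in KG-1a it was -0.45 for SRXN1 (adjusted p = 0.00101), -0.27 for TXNRD1 (adjusted p = 0.00438) and -0.32 for GCLM (adjusted p = 0.0336), and the last was lost in 4 of the 8 fits that each left out 1 library and under library-size or upper-quartile scaling (-0.27 and -0.26).

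Between lines, the MV4-11 response to 8CA less the KG-1a response was -3.26 for CHAC1 (adjusted p = 2.97e-09) and -0.25 for NFE2L2 (adjusted p = 0.0407) at 8 h, and the latter was lost without any 1 of the 8 libraries. At 24 h it was -2.33 for CHAC1 (adjusted p = 1.60e-08), -0.59 for NQO1 (adjusted p = 0.0024), -0.43 for GCLM (adjusted p = 0.00278) and -0.29 for GSR (adjusted p = 0.0238), with GSR lost in 7 of 8 such fits. For 8AA at 8 h the differences were 1.70 for CHAC1 (adjusted p = 0.00189), 0.41 for GCLC (adjusted p = 0.0068), -0.37 for GCLM (adjusted p = 0.00874) and -0.35 for NQO1 (adjusted p = 0.0482). NQO1 was lost there in 7 of 8 such fits and GCLM without MV4-11 8AA library B (-0.32). For 8AA at 24 h they were 2.04 for CHAC1 (adjusted p = 7.01e-05), 0.38 for TXNRD1 (adjusted p = 2.63e-05), 0.37 for GSR (adjusted p = 0.00172), 0.36 for SRXN1 (adjusted p = 0.0107) and 0.34 for GCLC (adjusted p = 0.011). GSR was 0.22 (adjusted p = 0.0468) and TXNRD1 0.28 without KG-1a 8AA library B. SRXN1 was lost without untreated KG-1a library B (0.32) or KG-1a 8AA library B (0.24), and GCLC without untreated MV4-11 library A (0.32) or MV4-11 8AA library A (0.28). Groups of 2 libraries were too small to test for a library that lies far from the others.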

How the results depend on the processing

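Of 200 member results among drugs, analogs, times and lines, 75 were called. The share of all genes called in each comparison is given above. Of the 75, 47 kept their call under every alternative, 28 lost it under at least 1, and 0 turned in direction. All of those losses occurred, among others, when a library was left out. In MV4-11 with 8CA at 8 h the number of members called was 2, and 1 under DESeq2 size factors, DESeq2's Wald test or the 6-library fit. For 8CA in KG-1a at 8 h it was 1, and 2 under library-size scaling, a minimum of 10 counts, the 6-library or the 24-library fit, and at 24 h 5, and 3 with the Wald test. For the time difference with 8CA in MV4-11 it was 1, and 2 under DESeq2 size factors, library size, upper quartile, a minimum of 10 counts or the 24-library fit. For 8AA against 8CA in MV4-11 at 8 h it was 2, and 0 in the 6-library fit, and for the line difference with 8CA at 8 h 2, and 1 under upper-quartile scaling or no filter. Library-size scaling moved the median of all genes between the untreated lines at 24 h by -0.11 on the log2 scale. DESeq2's Wald test also ended the calls of GCLC with 8AA at 8 h and NFE2L2 with 8CA at 24 h in MV4-11, and of NQO1 with 8AA at 8 h and GCLC with 8CA at 24 h in KG-1a. The cause of these changes was not tested.

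The deviations of the library letters correlated between groups by -0.078 to 0.113, with 0.093 to 0.113 in MV4-11 at 8 h. Noise of single libraries lowers such values, so they do not settle whether the letters pair the libraries. With the letter as a replicate block, the count was 3 instead of 1 for the time difference with 8CA in MV4-11, 2 instead of 1 for 8CA in KG-1a at 8 h, 1 instead of 2 for the line difference with 8CA at 8 h and 2 instead of 1 for untreated MV4-11 between times. The block also gained SRXN1 for 8CA (-0.23) and GSS for 8AA (0.16) in MV4-11 at 8 h, GCLC for 8AA in MV4-11 at 24 h (0.21) and SRXN1 in untreated KG-1a between times (-0.19), and lost NQO1 for the line difference with 8AA at 8 h (-0.35).

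Leaving out 1 library gave 0 to 1 members for 8CA and 3 to 4 for 8AA in MV4-11 at 8 h, and 4 to 6 and 3 to 5 at 24 h. In KG-1a it gave 1 and 4 to 5 at 8 h, and 3 to 4 and 5 to 6 at 24 h. For 8AA against 8CA it gave 1 and 3 to 4 in MV4-11 and 2 to 3 and 7 to 10 in KG-1a, at 8 h and 24 h. Between times it gave 1 to 2 for 8CA and 2 to 5 for 8AA in KG-1a and 0 to 2 in its untreated libraries. Between lines it gave 1 and 3 to 4 for 8CA and 2 to 4 and 4 to 6 for 8AA. Leaving out 1 library leaves 1 in its group, and the number of all genes called fell in these fits too. Only in comparisons that use 8AA in KG-1a at 24 h did it also rise in some fits. The lower member counts are therefore not particular to the members. With HMOX1 at 4 to 17 reads in MV4-11, small changes of this gene could not be detected there. With 2 libraries per group, small changes of other members could also have been missed.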
